A study of Homo sapiens with 9 samples.

Results

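The genes described here code for the integrins, the laminins and the molecules that tie them into a basement membrane. They were chosen by name from the deposited count table, and all 34 were among its 26364 gene names. The 34 comprised 21 integrin genes (13 alpha and 8 beta subunits), 9 laminin chain genes (5 alpha, 3 beta and 1 gamma chain) and the 4 linker and proteoglycan genes *NID1*, *NID2*, *HSPG2* and *AGRN*.

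A basement membrane is a thin sheet of matrix on which epithelial cells rest. Laminins are secreted as trimers of an alpha, a beta and a gamma chain that polymerise into its cell-facing network. Nidogens (*NID1*, *NID2*) link that network to collagen IV, and the heparan sulphate proteoglycans perlecan (*HSPG2*) and agrin (*AGRN*) are further components of the sheet. Integrins are the receptors that hold cells to this sheet: each is a pair of an alpha and a beta subunit that spans the plasma membrane, and the pair decides the ligand. The pairs of *ITGB1* with *ITGA3*, *ITGA6* or *ITGA7* and the pair of *ITGA6* with *ITGB4* bind laminins, the pairs of *ITGB1* with *ITGA1*, *ITGA2*, *ITGA10* or *ITGA11* bind collagens, and *ITGA5*, *ITGA8* and *ITGAV* pairs bind the RGD motif of fibronectin and related proteins. In lung carcinoma cells these receptors carry adhesion, migration and growth signals.

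All RNA came from A549, an established line of human lung adenocarcinoma, in 9 RNA-seq libraries. Control cells (genotype WT) gave 2 of them, and cells with the LOC388942-ALK fusion (genotype sgLOC388942 and sgALK, here LA cells) gave 2. LA cells that carried a scramble guide (sgScr) gave 3, and LA cells with *FOS* guides (sgFOS) gave 2, *FOS* being a gene of the AP-1 transcription factor. The fusion had been made with Cas9 in A549 cells that express it, and LA cells were grown from single cells by limiting dilution, so that a feature of 1 clone and an effect of the fusion cannot be told apart. Whether sgScr and sgFOS cells came from the clone sequenced as LA, and which *FOS* guide was used, is not given in the sources used here. Replicates carry a number only and nothing says that they were separate cultures, so the p-values measure the spread between these libraries, which may be technical.

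Total counts ranged from 14507228 to 20456341 per library. *FOS* had 1008 and 1113 counts in sgFOS against 4198, 4037 and 3528 in sgScr (log2 fold change -1.48 ± 0.04, edgeR adjusted p = 2.00e-25), and 5448 and 1660 in LA against 167 and 155 in control. *ALK* had 2 and 15 counts in LA, 4, 1 and 3 in sgScr, 2 and 0 in sgFOS, and 0 in both control libraries, too few for a test. All 9 listed A549 epithelial markers were counted in every library, *KRT8* at 51670 to 158979 counts and *EPCAM* at no more than 275. In LA against control 1 of the 9 was called higher (*CDH1*, log2 fold change 2.28 ± 0.41) and 0 lower. A value below 0 was found in 7 of them. In sgFOS against sgScr 3 were higher and 3 lower, and in sgScr against LA 3 were higher and 1 lower. Of 5 leukocyte markers, *PTPRC* and *CD3E* were at 0 in all 9 libraries and *LYZ* had at most 13 counts, whereas *CD68* had 382 to 688 and *CD14* had 122 to 659. *CD14* was called lower in LA than in control (log2 fold change -1.31 ± 0.43) and lower in sgScr than in LA (-0.77 ± 0.13), and *CD68* was called higher in sgFOS than in sgScr (0.65 ± 0.064). No endothelial marker exceeded 16 counts. Of 5 fibroblast markers, *COL1A1* had 111 to 271 counts and the others at most 25, and *COL1A1* was called higher in sgFOS than in sgScr (0.45 ± 0.14) and lower in sgScr than in LA (-1.18 ± 0.14). The part of these markers in the results on the members was not tested. The control and LA libraries differed among themselves far more than the others did: among members with a mean of at least 50 counts, 6 of 20 differed over 2-fold between both control libraries and 5 of 26 between both LA libraries, against 0 of 22 in each pair of sgScr or sgFOS libraries.

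Levels are given as CPM (counts per 1000000, after TMM scaling of all 9 libraries), and genes are compared with each other only as CPM per kilobase of their main annotated transcript. By this measure *ITGB1*, the beta subunit shared by most integrins, had the highest level of all 34 genes in every group. Its level per kilobase was 271 ± 130.1 (SD, n = 2) in control, 667 ± 96.0 (n = 2) in LA, 628 ± 11.4 (n = 3) in sgScr and 629.8 ± 13.8 (n = 2) in sgFOS. *ITGB5*, an *ITGAV* partner, followed in control at 141 ± 14.7, above *ITGA3*, the laminin receptor subunit, at 75.1 ± 12.6. In LA the order of those means was the other way, with *ITGA3* at 161 ± 34.9 and *ITGB5* at 112 ± 37.9. Within LA replicate 1 they were at 136 and 84.7, and within LA replicate 2 at 185 and 138. The neighbours *ITGA3* and *ITGB5* did not differ beyond their spread in sgScr, at 138 ± 4.59 and 136 ± 7.49.

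**Figure D1:**
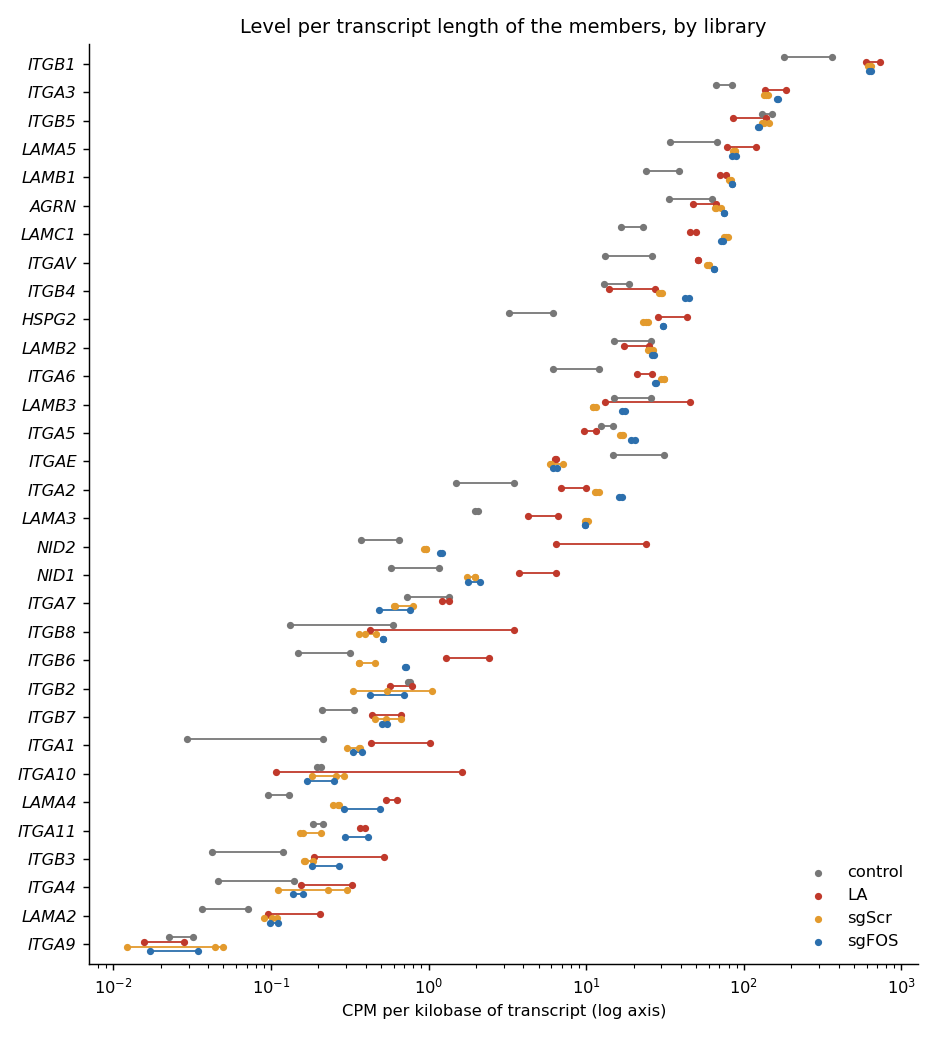
CPM per kilobase of transcript (log axis) of the members with a mean above 0 in every group, a point for each library and a line from the lowest to the highest library of a group. *ITGB1* has the highest level in all 4 groups, and the control libraries (grey) lie apart from the LA, sgScr and sgFOS libraries for *HSPG2*, *LAMA3* and *ITGAE*.

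Among laminin chains the alpha chain *LAMA5* led, at 50.9 ± 23.8 CPM per kilobase in control and 87.1 ± 1.48 in sgScr. The beta chain *LAMB1* stood at 31.5 ± 10.7 and 81.7 ± 1.20, and the gamma chain *LAMC1* at 19.8 ± 4.61 and 77.1 ± 1.75. A549 cells of every group thus carried RNA for each chain of the *LAMA5*, *LAMB1* and *LAMC1* trimer, the widespread laminin of adult epithelia. At the other end, *ITGA8*, *ITGA9* and *LAMA1* had between 0 and 8 counts in every library and were too low for any test, which left 31 members tested in each comparison. The leukocyte-type beta subunits *ITGB2* and *ITGB7* stayed between 10 and 51 counts.

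For LA against control, which asks what differs between A549 cells with and without the fusion, 13 of the 31 tested members were higher in LA, 1 was lower and 17 were not called at an adjusted p under 0.05 (edgeR quasi-likelihood test, adjusted over all genes tested). Over all 14425 genes tested the shares called were 9.57% higher and 9.94% lower, against 41.9% and 3.23% of the tested members. The members' median log2 fold change was 1.26, against 0.044 over all genes tested, and 27 of the 31 had a value above 0. The members took 0.334% and 0.395% of all counts in the control libraries and 0.777% and 0.911% in the LA libraries. They stood at 0.787%, 0.786% and 0.796% in sgScr and at 0.833% and 0.842% in sgFOS. With library size alone as the scaling, the median over all genes was 0.33, 28 members had a value above 0, and over all genes 1599 were higher and 680 lower, against 1380 and 1434 with TMM. In bulk RNA, fewer cells that use a gene and less RNA per cell cannot be told apart.

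These fold changes moved with gene length in this pair of groups, and the members are long. Across 14156 genes with an annotated length the log2 fold change rose with transcript length (Spearman's rho 0.57) and fell with GC content (rho -0.31), a description across genes, which are not independent. The tested members had a median transcript length of 5816 bp, against 3172 bp over all genes tested. Among the 2633 tested genes of at least 5816 bp, 29.9% were called higher and 1.41% lower, the median log2 fold change being 0.91. With a correction for these features within each library (the length and GC correction), 4 members were called higher (*ITGB6*, *NID1*, *NID2* and *HSPG2*) and 1 lower (*ITGAE*), where the shares over all 14156 genes were 5.38% and 6.59% and those of the members 12.9% and 3.23%. Among the tested genes of at least 5816 bp the shares with the correction were 8.62% higher and 7.94% lower. The members' median was then 0.60, against -0.039 over all genes and 0.085 over the long genes. Whether the trend came from the cells or from the libraries was not tested, so members called in this comparison are given with their corrected values.

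**Figure D2:**
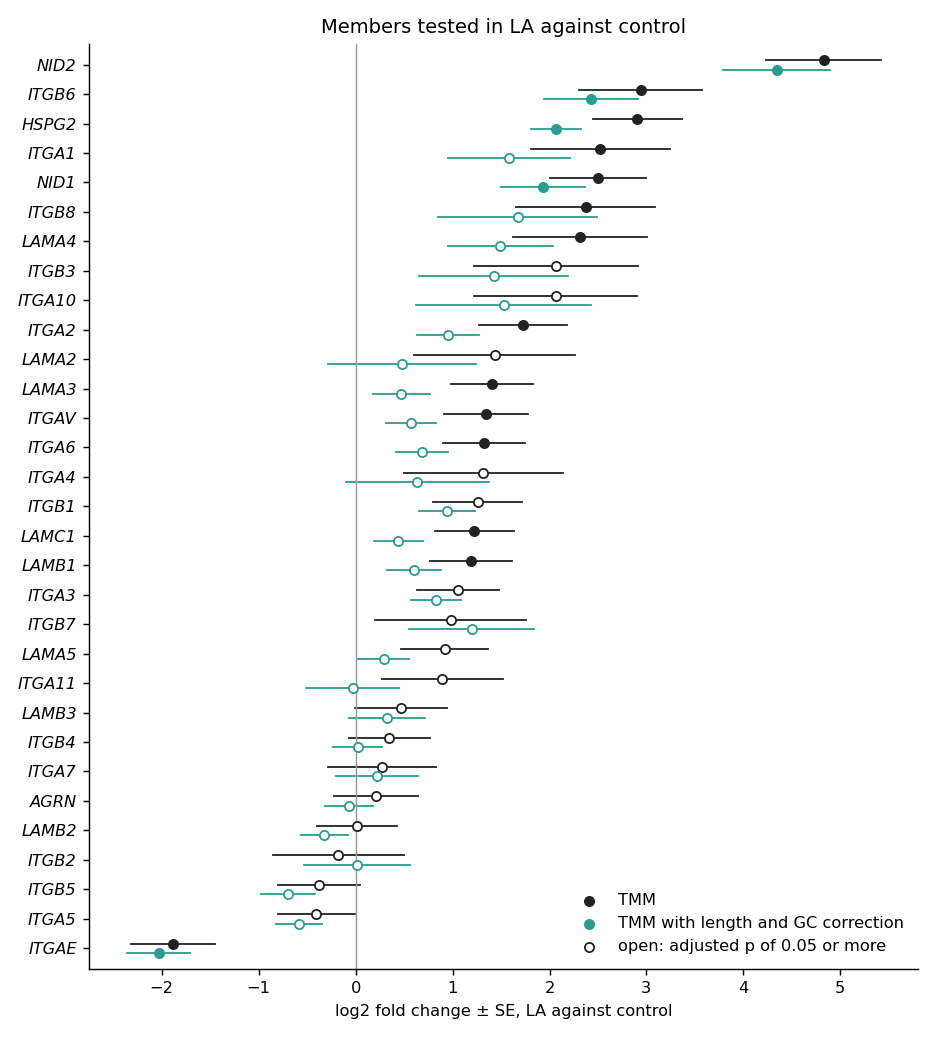
Log2 fold change ± SE of the 31 tested members in LA against control (2 libraries each), without (black) and with (green) the length and GC correction, filled where the adjusted p was under 0.05. *NID2*, *ITGB6*, *HSPG2* and *NID1* stay filled to the right of 0 with the correction and *ITGAE* to the left of it, whereas the laminin chains are open with it.

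Of the 4 linker and proteoglycan genes, 3 were higher in LA, and the same 3 were called with the correction. *NID2*, the gene of nidogen-2 (chr14:52471527-52535777, minus strand, GRCh37), had 29 and 54 counts in control and 509 and 2099 in LA. In CPM that was 1.82 and 3.18 in control, 31.4 and 116 in LA, 4.56, 4.71 and 4.70 in sgScr and 5.79 and 5.94 in sgFOS. Both LA libraries lay far above all others, and LA replicate 2 well above LA replicate 1. The log2 fold change of *NID2* in LA against control was 4.83 ± 0.59 (edgeR adjusted p = 1.94e-05), and 4.34 ± 0.55 with the correction (edgeR adjusted p = 0.00321).

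*HSPG2*, which codes for perlecan (chr1:22148737-22263803, minus strand), stood at 88.6 and 46.2 CPM in control and 410.3 and 627 in LA. Its sgScr libraries were at 356, 331 and 343 CPM and its sgFOS libraries at 439 and 440.3. All 7 libraries with the fusion lay above both control libraries with no overlap. The log2 fold change in LA against control was 2.91 ± 0.46 (edgeR adjusted p = 0.000427), and 2.07 ± 0.26 with the correction.

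*NID1*, the gene of nidogen-1, was at 3.33 and 6.78 CPM in control, 37.1 and 21.6 in LA, 11.3, 10.2 and 11.5 in sgScr and 10.3 and 12.3 in sgFOS. LA was again the group with the highest libraries, and sgScr and sgFOS lay between LA and control. *NID1* rose by 2.50 ± 0.50 on the log2 scale (edgeR adjusted p = 0.00211), and by 1.94 ± 0.43 with the correction. *AGRN*, the fourth of these genes, overlapped between control (458 and 244 CPM) and LA (349 and 487 CPM), with a log2 fold change of 0.21 ± 0.43 that was not called. *NID2* and *HSPG2* share exon positions with *RTRAF* and *LDLRAD2*, genes on the opposite strand, and the strand setting of the counting is not given in the sources used here.

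**Figure D3:**
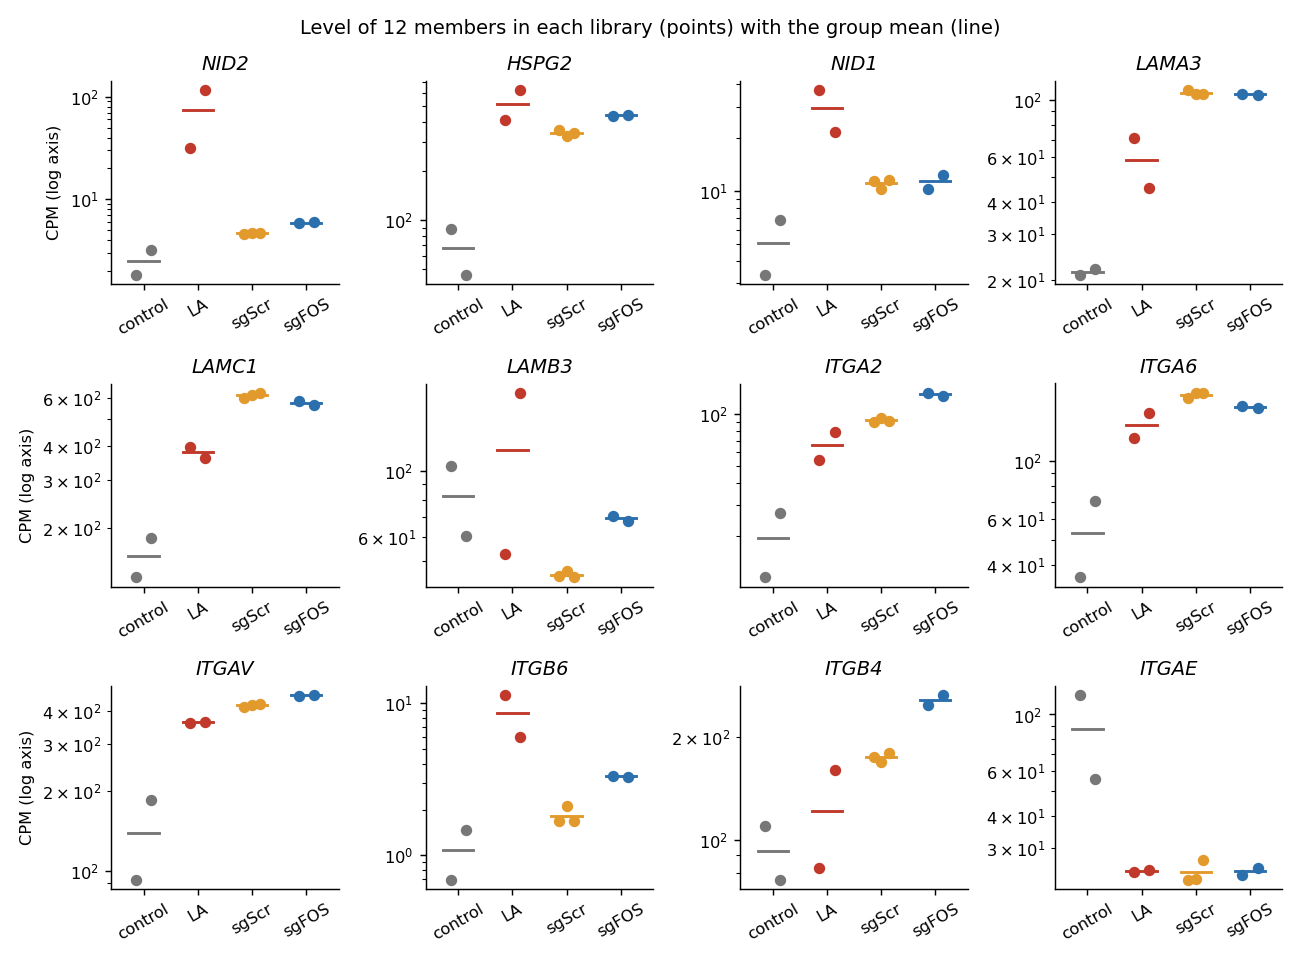
CPM (log axis) of 12 members in the 9 libraries, a point for each library and a line for the group mean. *NID2*, *NID1* and *ITGB6* have their highest libraries in LA, *HSPG2* lies above control in all 3 groups with the fusion, and *ITGAE* lies below control in all 3. *LAMB3* spreads more within LA than within any other group.

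Of the 8 laminin chains tested, 4 were higher in LA (*LAMA3*, *LAMA4*, *LAMB1* and *LAMC1*), none was lower, and 0 were called by edgeR with the correction, where 1 was higher and 0 lower at an unadjusted p under 0.05. DESeq2 without the correction also called 4 higher and 0 lower. The median log2 fold change of the 8 was 1.21, and 0.46 with the correction. *LAMC1*, the common gamma chain, was at 131 and 183 CPM in control and 395 and 359 in LA, with no overlap and a log2 fold change of 1.23 ± 0.41 (edgeR adjusted p = 0.0380; corrected 0.44 ± 0.26). *LAMB1*, its usual beta partner, moved from 135 and 220.4 to 437 and 396 CPM (log2 fold change 1.19 ± 0.42, edgeR adjusted p = 0.0477; corrected 0.60 ± 0.28). *LAMA5*, the alpha chain of that trimer, was at 774 and 389 CPM in control and 899.8 and 1355 in LA. The groups did not overlap, yet its log2 fold change of 0.92 ± 0.45 was not called.

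*LAMA3*, the alpha chain of the trimer that anchors hemidesmosomes, stood at 20.9 and 21.9 CPM in control and 70.7 and 45.5 in LA. Its control libraries were among the closest of any member, and both LA libraries exceeded them by a wide margin. The log2 fold change was 1.40 ± 0.42 (edgeR adjusted p = 0.0221; corrected 0.47 ± 0.30). *LAMB3*, the beta chain of the same trimer, had 104 and 60.5 CPM in control and 52.6 and 182 in LA, so that both control libraries fell between the 2 LA libraries. No call was made for it (log2 fold change 0.47 ± 0.47).

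*LAMA4*, an alpha chain best known from endothelial and muscle basement membranes, was low throughout, with 11 and 16 counts in control and 63 and 82 in LA (log2 fold change 2.31 ± 0.69, edgeR adjusted p = 0.0214; corrected 1.49 ± 0.54). *LAMA2*, the alpha chain of muscle laminin, had 11 and 6 counts in control and 15 and 36 in LA and was not called. *LAMB2*, the other common beta chain, did not separate the groups, with 147 and 85.7 CPM in control and 99.1 and 142 in LA and a log2 fold change of 0.013.

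Of the 19 integrin subunits tested, 6 were higher in LA and 1 was lower, the median log2 fold change being 1.26. With the correction *ITGB6* was called higher and *ITGAE* lower. *ITGB6*, the epithelial beta subunit that pairs with *ITGAV* in an activator of latent TGF-beta, had 11 and 25 counts in control and 183 and 108 in LA. Its sgScr libraries had 35, 43 and 29 counts and its sgFOS libraries 49 and 49. LA held the highest values and did not overlap with any other group. The log2 fold change was 2.94 ± 0.64 (edgeR adjusted p = 0.00328), and 2.42 ± 0.49 with the correction (edgeR adjusted p = 0.0155).

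*ITGAV*, the alpha subunit of *ITGB6*, *ITGB3*, *ITGB5* and *ITGB8*, was at 92.3 and 185 CPM in control and 361 and 363 in LA. The LA libraries nearly coincided and both exceeded the control libraries (log2 fold change 1.34 ± 0.43, edgeR adjusted p = 0.0305; corrected 0.57 ± 0.25). The other beta partners of *ITGAV* did not all follow it. *ITGB5*, the most abundant of them, had 670.5 and 578 CPM in control and 376 and 614 in LA, with a log2 fold change of -0.37 ± 0.42 that was not called. *ITGB8*, another receptor subunit for latent TGF-beta, was called (log2 fold change 2.37 ± 0.72, edgeR adjusted p = 0.0227; corrected 1.67 ± 0.82), but its counts of 19 and 90 in control overlapped with 62 and 563 in LA. DESeq2 did not call *ITGB8* (DESeq2 adjusted p = 0.252), and without LA replicate 2 its log2 fold change was 0.20. *ITGB3*, which also pairs with *ITGA2B* on platelets, stayed at or below 56 counts and was not called (2.07 ± 0.84).

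*ITGA5* is the alpha subunit of the fibronectin receptor. Its CPM was 63.2 and 52.9 in control and 41.2 and 48.8 in LA, all LA values lying below control, and the log2 fold change of -0.40 ± 0.40 was not called.

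Among collagen receptors, *ITGA2* and *ITGA1* were higher in LA. *ITGA2* was at 11.7 and 27.2 CPM in control, 54.5 and 78.4 in LA, 89.7, 94.0 and 90.8 in sgScr and 131 and 127 in sgFOS, and no group overlapped with its neighbour in that order. Its log2 fold change in LA against control was 1.73 ± 0.45 (edgeR adjusted p = 0.0105; corrected 0.95 ± 0.32). In sgScr against LA its value of 0.42 ± 0.16 was not called (edgeR adjusted p = 0.114), nor was it with the correction. How many of all genes separate the groups in this order was not counted. *ITGA1* had 5 and 39 counts in control and 178 and 84 in LA (log2 fold change 2.52 ± 0.72, edgeR adjusted p = 0.0170; corrected 1.58 ± 0.63), and it shares exon positions with *PELO* on the same strand. *ITGA11*, the fibroblast-type collagen receptor, had 30 and 37 counts in control and 61 and 73 in LA and was not called. *ITGA10*, the chondrocyte-type one, had 17 and 17 in control and 9 and 152 in LA, and its uncalled log2 fold change of 2.06 ± 0.84 was -0.91 without LA replicate 2.

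Among laminin receptors, *ITGA6* was higher in LA, at 36.0 and 70.4 CPM in control and 123 and 152 in LA (log2 fold change 1.33 ± 0.42, edgeR adjusted p = 0.0293; corrected 0.68 ± 0.27). Its more abundant relative *ITGA3* stood at 411 and 324 CPM in control and 665 and 906 in LA. *ITGA3* did not overlap between the groups, and its log2 fold change of 1.06 ± 0.42 missed the threshold (edgeR adjusted p = 0.0780). The same held for *ITGB1*, with 669 and 1356 CPM in control, 2745 and 2238 in LA and a log2 fold change of 1.26 ± 0.46 (edgeR adjusted p = 0.0559). DESeq2 without the correction called both *ITGA3* and *ITGB1* higher at an adjusted p under 0.05, whereas edgeR with the correction called neither. *ITGB4*, the beta subunit of hemidesmosomes, overlapped between control (109 and 76.2 CPM) and LA (82.5 and 160.0 CPM) with a log2 fold change of 0.34 ± 0.42. *ITGA7*, the muscle-type laminin receptor subunit, had 30 to 101 counts in all libraries and was not called (0.27 ± 0.56).

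*ITGAE*, the alpha subunit of the E-cadherin receptor of intraepithelial lymphocytes (chr17:3617922-3704482, minus strand), was the only member called lower in LA. It stood at 119 and 55.9 CPM in control, 24.1 and 24.5 in LA, 22.4, 22.6 and 26.9 in sgScr and at least 23.5 in sgFOS. The 7 libraries with the fusion lay within a narrow band under both control libraries, which differed from each other by about the factor that separates the lower of them from LA. The log2 fold change was -1.88 ± 0.43 (edgeR adjusted p = 0.00485), and -2.03 ± 0.32 with the correction. *ITGB7*, the beta subunit that pairs with *ITGAE*, had only 15 and 10 counts in control and 20 and 34 in LA, and of the 5 leukocyte markers *PTPRC* and *CD3E* were at 0 and *LYZ* had at most 2 counts in these libraries. *CD14* was lower alongside *ITGAE*, with 659 and 494 counts in control and 252 and 248 in LA (log2 fold change -1.31 ± 0.43, edgeR adjusted p = 0.0342, not called with the correction), while *CD68* had 529 and 418 counts in control and 382 and 458 in LA and was not called. *CDH1*, the gene of E-cadherin, had 287 and 372 counts in control and 1611 and 1816 in LA. Its log2 fold change was 2.28 ± 0.41 (edgeR adjusted p = 0.00123), and 1.79 with the correction. A link between *CDH1* and *ITGAE* was not tested. *ITGAE* shares exon positions with *HASPIN*, which lies on the opposite strand. *ITGA4*, a leukocyte-type subunit that pairs with *ITGB1* or *ITGB7*, had 5 and 16 counts in control and 17 and 40 in LA, and was not called. *ITGB2*, the common leukocyte beta subunit, had 34 and 35 in control and 26 and 40 in LA and was not called either.

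Single libraries decided many of these calls. Without control replicate 1 the members called higher were *ITGB6*, *LAMA5*, *NID1*, *NID2* and *HSPG2*, and without control replicate 2 they were 14, *ITGB1* joining the 13. Without LA replicate 1 they were *ITGA10*, *ITGB8*, *NID2* and *HSPG2*, and without LA replicate 2 they were *ITGA1*, *ITGB6*, *NID1*, *NID2* and *HSPG2*. *NID2* and *HSPG2* were therefore called in each of these 4 fits, while *ITGAE* was not called when either LA library was left out. Over all genes tested, the share called higher was 4.46 and 15.8% without control replicate 1 and 2, and 2.24 and 1.25% without LA replicate 1 and 2, against 9.57% with every library, so that calls across all genes moved as well. Leaving 1 library in an arm assumes that it varies as the other arm does. Over all alternative fits the log2 fold change of *ITGAE* ran from -2.41 to -1.27. Its lost calls were not set beside the share of all genes called lower, so they do not single out *ITGAE*.

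Genes that work with the members were read from lists of named genes. Of 16 other basement membrane genes tested, 10 were higher in LA and 0 were lower in edgeR (11 and 0 at an unadjusted p under 0.05 and also in DESeq2), and their log2 fold changes had a median of 1.48 (6 and 0 called with the correction, median 0.92). *FRAS1*, of the Fraser complex under epithelia, had 188 and 219 counts in control and 1486 and 2830 in LA (log2 fold change 3.28 ± 0.44, edgeR adjusted p = 5.7e-05). *SMOC1*, a secreted calcium-binding matrix protein, had 178 and 124 counts in control and 831 and 1498 in LA (2.82 ± 0.46, edgeR adjusted p = 0.00055). *PXDN*, the peroxidase that crosslinks collagen IV, had a log2 fold change of 2.55 ± 0.51 (edgeR adjusted p = 0.00213). Of 8 other laminin receptors and hemidesmosome partners, 2 were higher, *DST* (dystonin, 2.32 ± 0.43) and *DAG1* (dystroglycan, 1.17 ± 0.40). With the correction 0 were called by edgeR, and 2 were higher at an unadjusted p under 0.05. Of 27 adaptors and kinases of integrin adhesions, 4 were higher and 1 was lower, the largest values being *TNS1* (tensin-1) at 2.43 ± 0.50 and *SHARPIN*, an inhibitor of integrin activation, at -1.21 ± 0.41. With the correction 2 were higher and 2 were lower, and *SHARPIN* was at -0.16 and not called. Of the 4 other integrin genes tested, *ITGBL1*, an integrin beta-like secreted protein, was higher at 3.81 ± 0.60, and *ITGA2B* was lower at -1.87 ± 0.57.

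The comparison of sgFOS with sgScr asks which members differ in LA cells once *FOS* is targeted. The *FOS* and JUN proteins bind as AP-1 to the letters TGACTCA or, read from the other strand, TGAGTCA. Promoter windows (around transcription starts, RefSeq, GRCh38.p14) were at hand for 26 of the 34 members, in 33 windows. The form TGANTCA, searched on both strands and its own reverse complement, occurred in the windows of *LAMB3*, *ITGA5* and *LAMA3*, which was 9.09% of the member windows against 7.71% of all 35116 windows. TGACTCA alone, whose matches are among those of TGANTCA, gave the same 9.09% against 4.95%. The stretches from base -150 to base 1 of these starts are shown because they hold the motif, in capitals, in 2 members called higher in sgFOS and 1 not called. They lie at chr1:209651374-209651524 (minus strand, 1 of 3 *LAMB3* windows), chr12:54419266-54419416 (minus strand, *ITGA5*) and chr18:23872870-23873020 (plus strand, the *LAMA3* start that lies 183567 bases into the gene).
LAMB3: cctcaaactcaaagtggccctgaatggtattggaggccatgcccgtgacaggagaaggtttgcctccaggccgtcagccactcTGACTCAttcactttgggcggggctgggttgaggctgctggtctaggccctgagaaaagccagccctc
ITGA5: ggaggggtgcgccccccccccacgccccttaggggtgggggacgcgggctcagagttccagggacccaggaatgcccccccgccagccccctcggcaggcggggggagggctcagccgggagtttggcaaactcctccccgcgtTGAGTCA
LAMA3: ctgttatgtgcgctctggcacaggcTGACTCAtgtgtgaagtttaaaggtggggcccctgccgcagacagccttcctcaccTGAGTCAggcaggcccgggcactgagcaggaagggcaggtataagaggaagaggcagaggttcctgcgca
The motif began at base -67 in *LAMB3*, at base -6 in *ITGA5* and at bases -125 and -69 in *LAMA3*. A match describes the letters in the window and says nothing about binding in these cells.

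Of the 31 members tested in sgFOS against sgScr, 10 were higher, 2 were lower and 19 were not called. Over all 14196 genes tested, 12.2% were called higher and 10.5% lower, against 32.3% and 6.45% of the members. The members' median log2 fold change was 0.066, against -0.0015 over all genes. The changes were small beside those between LA and control, with absolute log2 values up to 1.03 among called members, and the replicates were close. With the length and GC correction 9 members were higher and 3 were lower, which is 29.0% and 9.68% of them against 9.05% and 10.1% over all 13952 genes. The log2 fold change showed little relation to length here (Spearman's rho -0.0056 across genes), and it rose with GC content (rho 0.26).

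**Figure D4:**
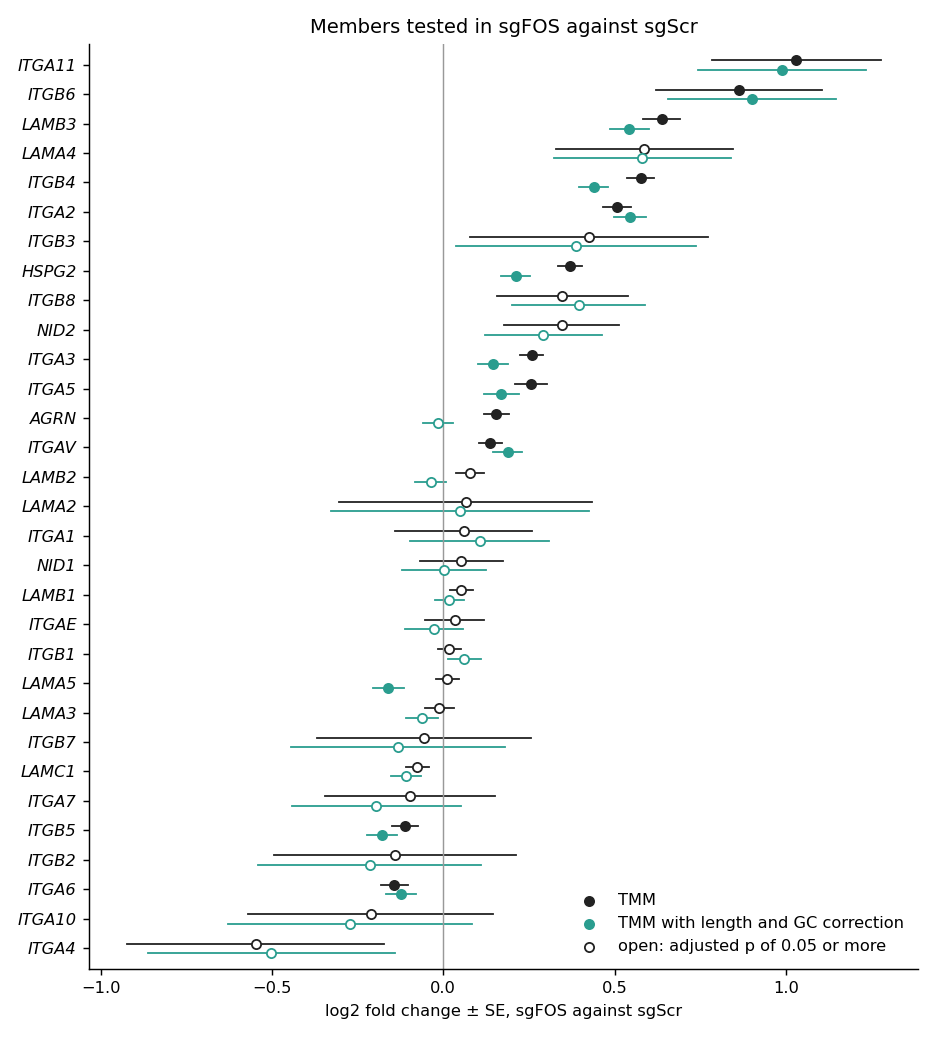
Log2 fold change ± SE of the 31 tested members in sgFOS (2 libraries) against sgScr (3 libraries), without (black) and with (green) the length and GC correction, filled where the adjusted p was under 0.05. *LAMB3*, *ITGB4*, *ITGA2* and *HSPG2* are filled to the right of 0 with short error bars, and low-count members such as *ITGA4* and *ITGA10* have long ones.

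Of *ITGB4*, *LAMB3*, *LAMA3* and *ITGA6*, all components of hemidesmosomal adhesion, 2 were higher in sgFOS, 1 was lower and 1 was not called. *ITGB4* was at 175, 169.5 and 179.5 CPM in sgScr and 249 and 266 in sgFOS, with no overlap and a log2 fold change of 0.58 ± 0.038 (edgeR adjusted p = 1.18e-14). *LAMB3*, whose promoter window held the AP-1 letters, was at 44.6, 46.3 and 44.1 CPM in sgScr and 70.6 and 68.1 in sgFOS (log2 fold change 0.64 ± 0.053, edgeR adjusted p = 5.37e-12). Both stood higher in sgFOS. *LAMA3*, which pairs with *LAMB3* in the trimer and whose window held the letters at 2 places, was at 109, 106 and 105 CPM in sgScr and 105 and 104 in sgFOS, with a log2 fold change of -0.012 ± 0.042 that was not called. *ITGA6*, which pairs with *ITGB4*, fell, from 173, 182 and 182 CPM to 162 and 159.6 (log2 fold change -0.14 ± 0.039, edgeR adjusted p = 0.00568). *ITGB4* and *ITGA6*, subunits of a single receptor, thus moved in opposite directions.

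None of the other laminin chains tested among the members was called by edgeR without the correction. *LAMA5* was at 1008, 976 and 1001 CPM in sgScr and 963 and 1026 in sgFOS (log2 fold change 0.012 ± 0.034, not called), but with the correction it was called lower at -0.16 ± 0.044 (edgeR adjusted p = 0.00489). *LAMB1* and *LAMC1* had log2 fold changes of 0.052 ± 0.034 and -0.075 ± 0.034, neither called. *LAMA4* had 40, 40 and 31 counts in sgScr and 31 and 53 in sgFOS, the CPM of both sgFOS libraries lying above sgScr, and its log2 fold change of 0.59 ± 0.26 was not called (unadjusted p = 0.0294, edgeR adjusted p = 0.101). *LAMA2* had a log2 fold change of 0.066 ± 0.37 at low counts.

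Among collagen receptors *ITGA2* rose from 89.7, 94.0 and 90.8 CPM in sgScr to 131 and 127 in sgFOS (log2 fold change 0.51 ± 0.042, edgeR adjusted p = 3.33e-12). *ITGA11*, at 44, 33 and 27 counts in sgScr and 44 and 63 in sgFOS, had the largest value of the called members (log2 fold change 1.03 ± 0.25, edgeR adjusted p = 0.00175), and it was not called without sgFOS replicate 2. *ITGA1* did not separate the groups (0.06 ± 0.20).

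The RGD-binding subunits *ITGA5*, *ITGAV* and *ITGB6* were higher in sgFOS and *ITGB5* was lower. *ITGA5*, the fibronectin receptor with an AP-1 motif at its start, was at 72.2, 70.1 and 71.3 CPM in sgScr and 81.3 and 87.2 in sgFOS (log2 fold change 0.26 ± 0.048, edgeR adjusted p = 8.34e-05). *ITGAV* was at 414, 421 and 423 CPM in sgScr and 456 and 458 in sgFOS (0.14 ± 0.034, edgeR adjusted p = 0.00227). *ITGB6* had a log2 fold change of 0.86 ± 0.24 (edgeR adjusted p = 0.00771) at fewer than 50 counts in each library of both groups, and it was not called without either sgFOS library. *ITGB5* was at 593, 575 and 639.7 CPM in sgScr and at or below 556 in sgFOS (-0.11 ± 0.037, edgeR adjusted p = 0.0263), and its call was lost without sgScr replicate 3 or either sgFOS library. *ITGA6* lost its call without sgFOS replicate 2. Over all alternative fits the log2 fold change ran from -0.18 to -0.067 in *ITGB5* and from -0.17 to -0.10 in *ITGA6*. The lost calls of both were not set beside the share of all genes called lower. Over all genes tested, 6.95 and 7.75% were called higher without sgFOS replicate 1 and 2, against 12.2% with every library.

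Of the laminin receptor subunits paired with *ITGB1*, *ITGA3* was higher in sgFOS, at 653, 674 and 698 CPM in sgScr and 807 and 793 in sgFOS (log2 fold change 0.26 ± 0.034, edgeR adjusted p = 2.52e-07). *ITGB1* itself had a log2 fold change of 0.018 ± 0.033 and overlapped between the groups. The low-count integrins *ITGA4*, *ITGA7*, *ITGA10*, *ITGB2*, *ITGB3*, *ITGB7* and *ITGB8* were not called, with log2 fold changes from -0.55 in *ITGA4* to 0.43 in *ITGB3*.

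Of the linkers and proteoglycans, *HSPG2* rose from 356, 331 and 343 CPM in sgScr to 439 and 440.3 in sgFOS (log2 fold change 0.37 ± 0.035, edgeR adjusted p = 1.49e-10; corrected 0.21 ± 0.043). *AGRN* went from 487, 479 and 521 CPM to 546 and 548 (0.16 ± 0.036, edgeR adjusted p = 0.00123), and with the correction its value was -0.015 and not called. *NID1* (0.053 ± 0.12) and *NID2* (0.35 ± 0.17), both higher in LA than in control, were not called. LA against control and sgFOS against sgScr share no library. Side by side *ITGA2*, *ITGAV*, *ITGB6* and *HSPG2* were called higher in both, of which only *ITGB6* and *HSPG2* were called in LA with the correction. How many of all genes were called higher in both was not counted. *ITGA6* was higher in LA and lower in sgFOS, and *ITGAE*, lower in LA, was not called in sgFOS (0.033 ± 0.086).

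Of 17 other basement membrane genes tested in sgFOS against sgScr, 10 were higher and 0 were lower in edgeR, the median log2 fold change being 0.28 (9 and 1 with the correction). At an unadjusted p under 0.05 the counts were 10 and 1, and DESeq2 called 9 and 0. Among them were *SPARC*, a collagen-binding matrix protein (1.11 ± 0.24), and the collagen IV chain *COL4A1* (0.74 ± 0.059). Of 8 other laminin receptors and hemidesmosome partners, 5 were higher and 1 was lower (2 and 0 with the correction). The largest of these was *COL17A1*, the transmembrane collagen of hemidesmosomes, with 33, 29 and 29 counts in sgScr and 55 and 51 in sgFOS (log2 fold change 1.21 ± 0.24, edgeR adjusted p = 0.000259). Of 27 adhesion adaptors and kinases, 11 were higher and 1 was lower (7 and 3 with the correction), with *TNS1* at 0.55 ± 0.14, *ZYX* (zyxin) at 0.46 ± 0.042, *BCAR1* (p130Cas) at 0.39 ± 0.044 and the kinase *PTK2B* at -0.33 ± 0.059. None of the 4 other integrin genes tested was called at an adjusted p under 0.05 by edgeR or DESeq2, and 2 were higher at an unadjusted p under 0.05 in edgeR.

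A trimer needs a chain of each kind, so chain levels were set beside each other per kilobase. *LAMB3* as a percentage of *LAMB1* was 13.8, 14.1 and 13.2% in sgScr and 20.9 and 20.2% in sgFOS, without overlap, but in control it was 108 and 38.7% and in LA 16.9 and 64.6%, so that no order between those groups can be read. *LAMA3* as a percentage of *LAMA5* was 11.5 ± 0.186% in sgScr and 11.3 ± 0.583% in sgFOS, which overlapped. *LAMA3* had a lower mean than *LAMB3* in every group, and in sgScr they were closest, at 10.00 ± 0.186 and 11.2 ± 0.284 CPM per kilobase. *LAMA3* was divided by the 10651 bp of its main annotated transcript. Transcripts from the start that lies 183567 bases into the gene were not counted apart. The order of *LAMA3* and *LAMB3*, and the percentage of *LAMA5*, hold for that length only.

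**Figure D5:**
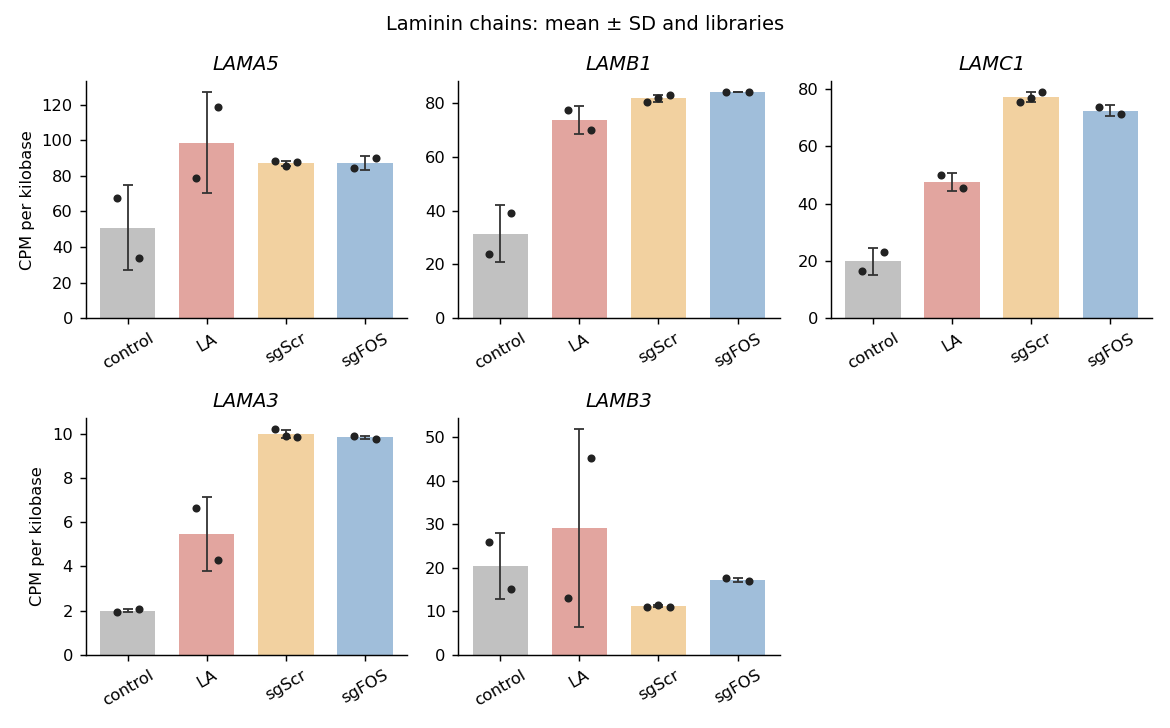
CPM per kilobase of the *LAMA5*, *LAMB1* and *LAMC1* chains (top) and the *LAMA3* and *LAMB3* chains (bottom): bars are group means, error bars the SD and points the libraries (2 control, 2 LA, 3 sgScr, 2 sgFOS). Both sgFOS libraries lie slightly above sgScr for *LAMB1* and slightly below it for *LAMC1*, and those of *LAMA5* overlap with sgScr. *LAMB3* is higher in sgFOS than in sgScr, and the 2 LA libraries of *LAMB3* lie far apart.

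Receptor subunits were read the same way. *ITGB4* as a percentage of *ITGB1* was 4.81, 4.50 and 4.85% in sgScr and 6.61 and 7.29% in sgFOS. *ITGA6* as a percentage of *ITGA3* was 22.3, 22.7 and 21.9% in sgScr and 16.8 and 16.9% in sgFOS. Neither share overlapped, the first being higher and the second lower in sgFOS. The alpha subunits that can pair with *ITGB1* summed to 50.7 ± 24.2% of its level in control and 41.2 ± 0.810% in sgScr, with *ITGB1* above their sum in every library. RNA levels do not give the amount of assembled receptor.

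The sgScr and LA groups both carry the fusion, and their comparison gives a further reading of the members in cells with the fusion. The scramble guide and whatever else separated the groups cannot be told apart, and this comparison shares the LA libraries with LA against control and the sgScr libraries with sgFOS against sgScr. Of 31 members tested, 3 were higher in sgScr and 6 were lower, which is 9.68% and 19.4% of them, where 10.6% and 12.3% of all 14521 genes were called. The members' median log2 fold change was -0.19, against -0.016 over all genes.

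The higher members were *LAMC1* (log2 fold change 0.65 ± 0.084, edgeR adjusted p = 0.00633), *LAMA3* (0.84 ± 0.18) and *ITGA5* (0.62 ± 0.11). *LAMC1* was at 597, 611 and 625 CPM in sgScr and *LAMA3* at 109, 106 and 105, above both LA libraries given before. The lower members were *NID2*, *ITGB6*, *NID1*, *LAMA4*, *ITGA11* and *ITGA7*. *NID2* fell by 4.03 on the log2 scale (edgeR adjusted p = 0.00686), from 509 and 2099 counts in LA to 95, 96 and 81 in sgScr. *ITGB6* had a log2 fold change of -2.27 ± 0.31 and *NID1* of -1.45 ± 0.23. *ITGA7* had 81 and 101 counts in LA and 53, 51 and 57 in sgScr (-0.97 ± 0.22). So the members with the largest values between LA and control, *NID2* and *ITGB6*, were far lower in the other libraries with the fusion, whereas *HSPG2* was not called (log2 fold change -0.64 ± 0.18, edgeR adjusted p = 0.0514) and *ITGAE* differed little (-0.061 ± 0.12). These calls depended on which library was left out: without sgScr replicate 1 only *NID2* was called, without sgScr replicate 2 only *ITGB6*, and without sgScr replicate 3 none by edgeR (3 higher and 7 lower at an unadjusted p under 0.05), whereas 7 members were higher and 14 lower without LA replicate 1, and 11 and 10 without LA replicate 2. The share of all tested genes called higher was 1.55, 1.42 and 1.18% without sgScr replicate 1, 2 and 3, and 32.4 and 25.2% without LA replicate 1 and 2, so that the members' counts moved with those of all genes.

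The related lists moved as follows in sgScr against LA. Of 17 other basement membrane genes tested, 2 were higher and 8 were lower, the median log2 fold change being -0.31 (3 and 6 called with the correction). *SMOC1* had 831 and 1498 counts in LA and 38, 51 and 52 in sgScr (log2 fold change -4.83 ± 0.29, edgeR adjusted p = 0.000971), *SPARC* a value of -2.37 ± 0.21 and *FRAS1* of -1.28 ± 0.22. Of 8 other laminin receptors and hemidesmosome partners 1 was higher, *CD151*, a tetraspanin that binds *ITGA3* (0.39 ± 0.09), against 1 higher and 1 lower with the correction. Of 27 adaptors and kinases 2 were higher and 6 were lower (4 and 5 with the correction), *TNS1* being the lowest at -2.09 ± 0.32, and of 5 other integrin genes tested *ITGAL* was higher (1.84 ± 0.48) and *ITGBL1* lower (-6.37 ± 0.35).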

How the data were processed

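RNA-seq of A549 cells was analysed in 9 libraries, grouped by the sample labels. The authors deposited an unnormalized table of counts, whole numbers of reads for each gene name. The methods and the submitters' processing notes name stranded mRNA libraries, paired-end reads, STAR 2.7.10b, hg19 and DESeq2 1.26.0. Which program counted the reads, with which annotation and strand setting, is not given in the sources used here.

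For each comparison edgeR 4.0.16 (R 4.3.3) was run on its own libraries only, with TMM normalization, filterByExpr, the two-sided quasi-likelihood test and Benjamini-Hochberg adjustment over all genes tested. A member was called at an adjusted p under 0.05, and SE is the log2 fold change divided by the square root of F. Total counts were 14507228 to 20456341 per library. Counting error only is covered by such depths, and the reads carry no molecular identifiers. Transcript lengths, GC content and gene positions came from GENCODE on GRCh37, the build called hg19. Of the gene names, 22494 matched directly, 1323 by an older symbol, 862 by gene number and 1685 not. The correction for length and GC content fitted loess (span 0.5) within a library and entered the curve as an offset, and left out genes without a length. Promoter windows came from RefSeq on GRCh38.p14 and were used for sequence only. Plots were made with Python 3.11.15.

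Alternatives were DESeq2 1.42.0, other normalizations and filters, a joint fit of all 9 libraries, a block for the replicate number, the threshold of the study's methods (absolute log2 fold change over 0.5 at an unadjusted p under 0.05), an adjusted p under 0.01, and leaving out each library. The scripts were tested on simulated counts. The members and lists were chosen with earlier results of these data known. All members may be named. Genes outside them come from the lists, at most the 3 largest called changes in each direction. A gene counted in these lists is not reported here by name.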

Additional observations from a re-analysis of the deposited data

How the results depend on the processing

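No member that was called in either of the fits compared changed sign, with 3 exceptions: with the length and GC correction *LAMA5* was -0.16 (called lower) and *AGRN* -0.015 in sgFOS against sgScr, and in sgScr against LA *LAMA5* was 0.12 (called higher) without LA replicate 2, in a range of -0.48 to 0.12 over the libraries left out. The causes were not tested. In LA against control the 13 members called higher became 4 with the correction, 7 with the correction and the replicate block together, and 4 at an adjusted p under 0.01. Leaving out a library gave between 4 and 14 higher and between 0 and 1 lower. The replicate block alone gave 9 higher and 1 lower. Same-numbered libraries deviated in opposite ways (correlation -0.22), and a crossed block, chosen after seeing the data, gave 13 and 1. Under the blocks and at an adjusted p under 0.01, genes called over the whole table were not counted, here or below. Member counts in those settings therefore cannot be told from a shift in all genes.

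In sgFOS against sgScr, all 9 libraries in a single fit, which shares the wider spread of the control and LA libraries, called 0 higher and 0 lower in edgeR (2 and 0 at an unadjusted p under 0.05), against 9 and 2 in DESeq2 on the libraries compared. The joint fit was not counted over all genes. The threshold of the study's methods gave 6 and 0 members, and 530 and 288 of all 14196 genes tested. The replicate block gave 10 and 1, and with the correction 9 and 0. An adjusted p under 0.01 left 1 lower, and leaving out a library gave between 8 and 11 higher and between 0 and 2 lower.

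In sgScr against LA the correction gave 6 higher and 7 lower, or 19.4% and 22.6% of the members. Over all 14254 genes tested with it, 2197 were higher and 1874 lower. *ITGB4*, *LAMB2* and *AGRN* joined the higher members and *LAMB3* the lower ones. The replicate block gave 1 higher and 3 lower, and the block with the correction 3 lower. At the methods' threshold 3 members were higher and 10 were lower, and of all 14521 genes tested 1560 and 2200. At an adjusted p under 0.01, 1 member was higher and 2 were lower. Leaving out a library gave between 0 and 11 higher and between 0 and 14 lower. In both comparisons the replicate numbers do not pair the libraries (correlations -0.12 to 0.0090). DESeq2, the other normalizations and the other filters kept each of these counts within 1.5 times, though some members gained or lost a call. With 2 libraries in an arm and 14507228 to 20456341 counts, members under about 50 counts have wide errors, and a missed call there says nothing about equality.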
